A study of Mus musculus with 3 samples.

Results

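Growth factor, TGF-beta and Wnt signalling genes were examined in area CA1 of the mouse hippocampus 6 h after contextual fear conditioning. The members were chosen by symbol, as probe sets that the platform annotation assigns to a single gene of the Fgf, Fgfr, Igf1, Igf2, Igfbp, Bmp, Tgfb, Smad, Acvr, Inhb, Wnt, Fzd, Vegf, Pdgf, Gdf or Dvl families. This gave 141 probe sets for 110 genes, out of 12422 probe sets other than array controls and 8251 named genes. A further 2 probe sets name a member together with another gene, Igfbp5 with Tmem119 and Gdf1 with Cers1, and were left out. The single group, with 3 arrays, was young male mice of the inbred strain C57BL/6J, and no transgene or drug is named. Each animal had 2 min in a new context before a foot shock of 1 s at 0.5 mA, a cycle given 3 times, and went back to its home cage 1 min after the last shock. Whether 1 animal or several gave the RNA of an array is not stated, and all p-values here measure only the spread between these arrays, which may be technical. Untrained mice were not analysed here, and the values below describe trained mice with no estimate of what training changed.

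In these pathways a secreted ligand binds receptors on the cell surface and intracellular proteins carry the signal to the nucleus. FGF, IGF, VEGF and PDGF ligands act on receptor tyrosine kinases, and secreted IGF-binding proteins hold IGFs in the extracellular space. TGF-beta, activin and BMP ligands act on type I and type II receptor kinases that phosphorylate Smad proteins. Wnt ligands bind Frizzled receptors and signal through Dishevelled proteins. In the brain these families pattern the embryo, and in the adult they act in glial and vascular biology, neurogenesis and synapse function.

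The promoters of 3 members are shown because the results return to these genes: Igf1, an IGF ligand with nearly equal signal on all arrays, Igfbp2, the member with the lowest variance-test p, and Dvl1, a Wnt mediator. The RefSeq windows (GRCm38.p6) run from 250 bases before to 50 bases after the first listed gene start. They lie at chr10:87860861-87861160 (plus strand), chr1:72824230-72824529 (plus strand) and chr4:155847152-155847451 (plus strand). Capitals mark each CpG and, in Dvl1, also the whole cAMP response element.
Igf1: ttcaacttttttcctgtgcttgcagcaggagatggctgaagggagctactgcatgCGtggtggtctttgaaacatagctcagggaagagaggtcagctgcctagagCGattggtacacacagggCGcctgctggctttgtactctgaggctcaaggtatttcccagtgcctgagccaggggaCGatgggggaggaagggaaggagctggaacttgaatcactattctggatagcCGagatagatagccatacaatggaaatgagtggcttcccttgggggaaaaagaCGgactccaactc
Igfbp2: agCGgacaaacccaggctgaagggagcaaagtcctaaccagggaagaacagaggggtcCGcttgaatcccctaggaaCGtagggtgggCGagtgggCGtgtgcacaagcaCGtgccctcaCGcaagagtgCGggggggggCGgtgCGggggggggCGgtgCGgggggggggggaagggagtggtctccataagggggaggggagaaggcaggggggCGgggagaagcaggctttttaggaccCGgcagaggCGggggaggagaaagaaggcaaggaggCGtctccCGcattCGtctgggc
Dvl1: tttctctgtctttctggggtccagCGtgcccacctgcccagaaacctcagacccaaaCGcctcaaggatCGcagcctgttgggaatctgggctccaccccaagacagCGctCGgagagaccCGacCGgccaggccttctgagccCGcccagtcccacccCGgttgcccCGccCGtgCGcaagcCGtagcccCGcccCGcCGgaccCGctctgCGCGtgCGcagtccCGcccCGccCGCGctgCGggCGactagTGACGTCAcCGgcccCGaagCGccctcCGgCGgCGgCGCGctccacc
The windows hold 6, 18 and 35 CpG pairs for Igf1, Igfbp2 and Dvl1. The palindrome TGACGTCA, the letters of the cAMP response element to which CREB binds, starts 3 bases after the gene start in Dvl1. Read on both strands, it was found in 1 of the 80 member promoters with an entry, and in 1.88% of all 27025 genes with one. Among genes on the array it was found in 3.40% of those above threshold and 2.09% of those under it. The TCF/LEF letters CTTTGAT were found in 2 of the 80, which is 2.5%, and in 3.72% of all genes. On the array they were found in 2.64% of genes above and 2.66% of genes under threshold. The Smad palindrome GTCTAGAC was found in 1 of 80 and in 0.211% of all genes, and on the array in 0.330% and 0.303%. None of these counts was tested. These are matches of letters in a window and not binding sites. Only 72.7% of the 110 members had an entry, under the 80% set for a comparison of base composition over the set, so that comparison is void.

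A probe set counted as above threshold if its 3-array mean exceeded 175, which is the median of the whole table. Of the 141 member probe sets 48 passed, which is 34.0%, against 50.1% of all non-control probe sets. The 48 represent 43 of the 110 genes. On all 3 arrays 39 member probe sets passed, against 43.9% of all probe sets, and 85 were under threshold on every array. By role, the share above threshold was 21.2% of 66 ligand probe sets, 42.1% of 38 receptor probe sets, 57.1% of 21 intracellular probe sets and 37.5% of 16 probe sets for secreted binding and matrix proteins. No detection calls were used, so genes under threshold may still be expressed. Signals are on a linear scale in arbitrary units and are not compared between probe sets.

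**Figure D1:**
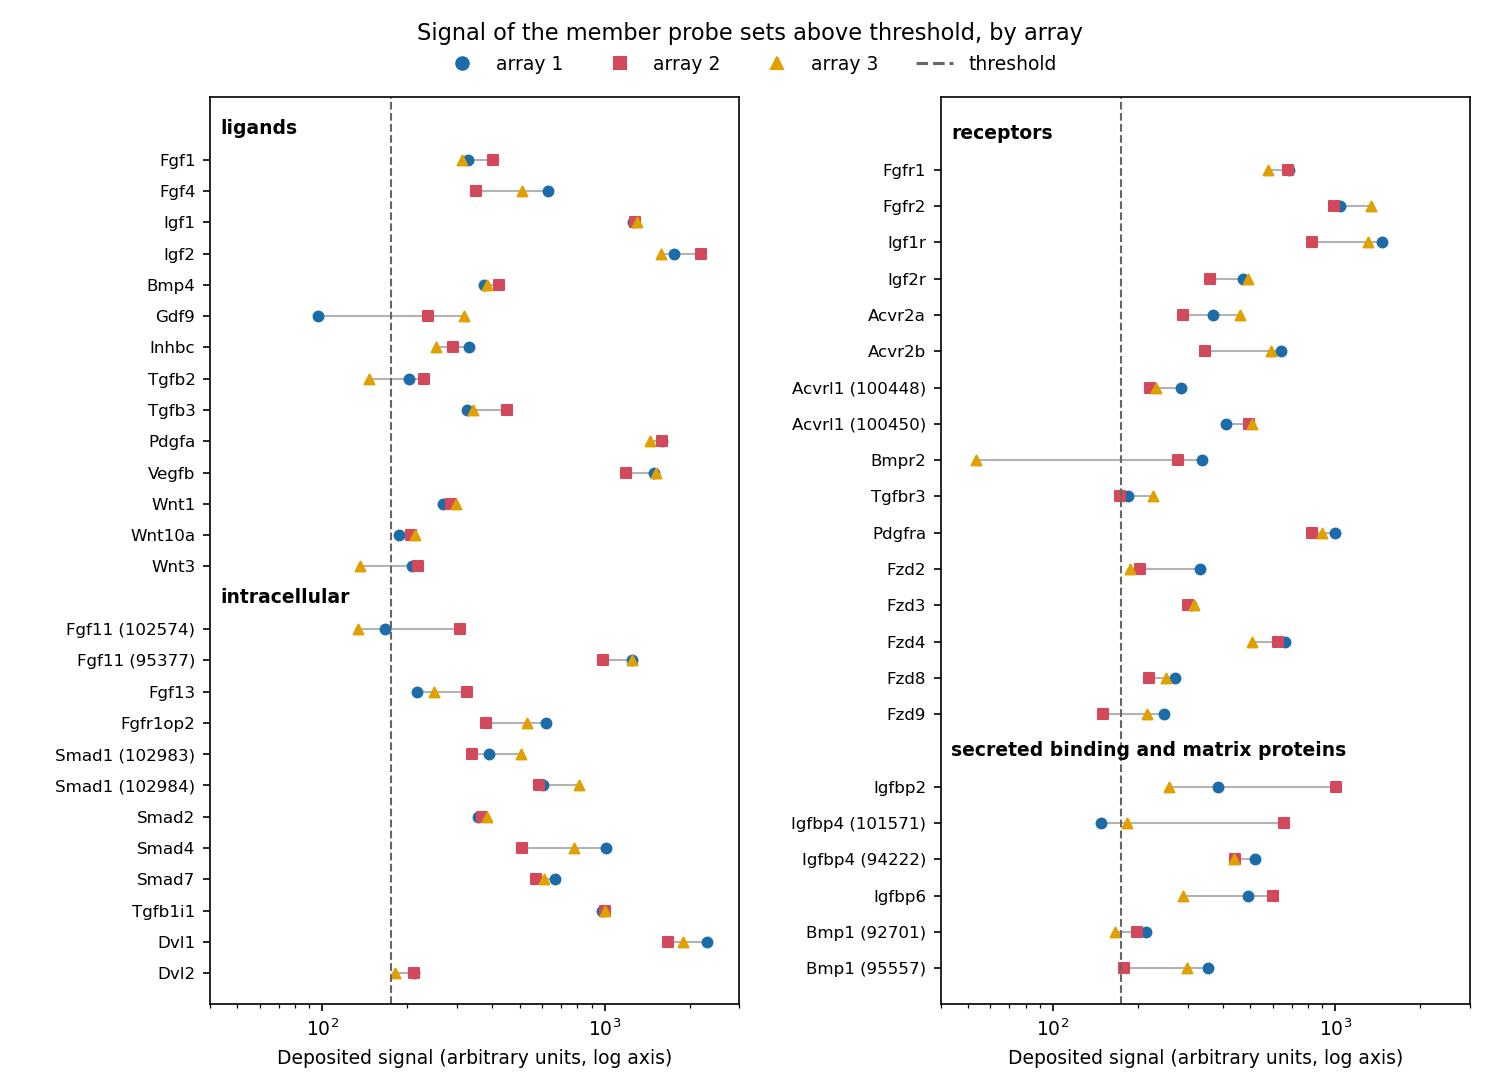
Deposited signal (arbitrary units, log axis) of the 48 member probe sets above threshold on arrays 1, 2 and 3, grouped by role. Grey lines join the lowest and highest array of a probe set, the dashed line is the threshold of 175, and the number after a gene tells probe sets of 1 gene apart. Most probe sets span a short distance, and Bmpr2, Gdf9, Igfbp2 and 1 probe set of Igfbp4 span the longest.

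Among the ligands, 14 of 56 genes had a probe set above threshold. Both IGF ligands were among them. Igf1, the insulin-like growth factor that mediates growth hormone action, gave 1262, 1284.5 and 1306 on arrays 1, 2 and 3, a mean of 1284 ± 22.1 (SD, n = 3 arrays, as for all means here). Igf2, a growth factor made by choroid plexus and meninges in adult brain, gave 1765, 2198 and 1582. Igf1 thus lay within 0.09 log2 units on the 3 arrays, and Igf2 was highest on array 2 with a log2 range of 0.43.

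Of 13 FGF ligand genes, 2 passed. Fgf1, the acidic FGF, gave 327, 403 and 312. Fgf4, an FGF known from the early embryo, gave 632, 349.9 and 510.2, lowest on array 2. The other 11, Fgf2, Fgf3, Fgf5, Fgf6, Fgf7, Fgf8, Fgf9, Fgf10, Fgf15, Fgf17 and Fgf18, were under threshold on every array.

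Of 21 genes for TGF-beta, BMP, GDF and activin ligands, 5 passed. Bmp4, a BMP that favours glial fates, gave 375, 424 and 384 at its brighter probe set. Tgfb3 gave 325, 452 and 341, and Tgfb2 gave 203, 229.7 and 147, so both were highest on array 2 and Tgfb2 crossed the threshold on array 3. Inhbc, an activin subunit known mainly from liver, gave 331, 289.7 and 253. Gdf9, known from oocytes, gave 96.5, 237 and 318, with array 1 more than 2-fold below the other arrays. Tgfb1, Bmp2, Bmp5, Bmp7 and Gdf11 were among the 16 genes with no probe set above threshold. Of those 16, Bmp6, Gdf10 and Inhba each passed on 1 array, and Gdf10 gave 38.7, 82.7 and 179.

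Of 6 VEGF and PDGF ligand genes, 2 passed. Pdgfa, the mitogen of oligodendrocyte precursors, gave 1602, 1590.2 and 1452, a mean of 1548 ± 83.1. Vegfb, a ligand of the receptor Flt1, gave 1493.5, 1191 and 1526, lowest on array 2. Vegfa, the main angiogenic factor, was under threshold on every array at 73.3, 45.6 and 78.9, and Vegfc, Vegfd and Pdgfb were under threshold on every array too.

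Of 14 Wnt ligand genes, 3 passed, of which Wnt10a and Wnt3 had means of 201 and 187, close to the threshold. Wnt1, which patterns the embryonic midbrain, gave 268, 285.5 and 298. Wnt10a gave 186, 206 and 212. Wnt3, a ligand of canonical Wnt signalling, gave 208.5, 217 and 136, and thus passed on arrays 1 and 2. Wnt2b, Wnt3a, Wnt4, Wnt5a, Wnt5b, Wnt6, Wnt7a, Wnt7b, Wnt8a, Wnt10b and Wnt11 were under threshold on every array.

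Among the receptors, 15 of 27 genes had a probe set above threshold. The IGF receptors both passed on all arrays. Igf1r, the tyrosine kinase that binds both IGFs, gave 1469, 824 and 1305. Igf2r, which takes up IGF2 and lysosomal enzymes, gave 470.4, 361 and 491. Both were lowest on array 2, with log2 ranges of 0.84 and 0.49.

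Of the 4 FGF receptor genes, Fgfr1 gave 687, 679 and 577, from a probe set whose suffix marks probes shared with related sequences. Other members above threshold also lacked the plain suffix, with s_at for Bmp4, Fzd3 and Fzd4 and r_at for 1 probe set of Acvrl1. The suffix was g_at for Igf2 and for 1 probe set each of Smad1 and Igfbp4. Fgfr2, an FGF receptor of glial cells, gave 1038.5, 986.5 and 1339 at its brightest probe set. Fgfr3 and Fgfr4 were under threshold on every array. The PDGF receptor Pdgfra, a marker of oligodendrocyte precursors, gave 999.6, 824.5 and 896 at its brightest probe set, while Pdgfrb, a marker of pericytes, gave 67.5, 152 and 78.9, under threshold on each array.

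Of 11 receptor genes of the TGF-beta family, 5 passed. The type II activin receptors Acvr2a and Acvr2b gave 367, 288 and 459, and 643, 345 and 591, both lowest on array 2. Tgfbr3, the co-receptor betaglycan, gave 184, 173 and 226. The type II BMP receptor Bmpr2 gave 338, 277.5 and 53.4, which set array 3 more than 2-fold below both others and under threshold, with a log2 range of 2.62. The type I and II receptors Tgfbr1 and Tgfbr2 and the type I BMP receptors Bmpr1a and Bmpr1b were under threshold on every array. Acvr1b passed on array 1 alone, at 185, 149 and 39.7.

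Frizzled receptors passed for 5 of 8 genes. Fzd3, which acts in axon guidance, gave 308, 300.5 and 316, and Fzd4, the receptor of the ligand norrin, gave 665, 624 and 507. Fzd8 gave 269.7, 218.5 and 252, Fzd2 gave 333, 204 and 188, and Fzd9 gave 247, 151 and 215. The last crossed the threshold on array 2, whereas the other 4 stayed above it on all arrays. Fzd1, Fzd6 and Fzd7 were under threshold on every array.

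Among the genes for intracellular proteins, 10 of 18 had a probe set above threshold. Dvl1, a Dishevelled protein that relays the Frizzled signal, gave 2294, 1674.5 and 1887, a mean of 1952 ± 315. Dvl2 gave 212, 211 and 180.5 at its brighter probe set, and Dvl3 was under threshold at 28.2, 54.9 and 28.3.

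The Smads divided by gene. Smad1, which carries BMP signals, was highest on array 3 at both probe sets, at 603, 587 and 814, and at 389, 339 and 505. Smad2, which carries TGF-beta and activin signals, gave 355, 368 and 383. The common partner Smad4 gave 1011.5, 511 and 779, lowest on array 2 with a log2 range of 0.99. The inhibitory Smad7 gave 668, 570.0 and 611. Smad3 and Smad5 were under threshold on every array, and the inhibitory Smad6 gave 184, 113 and 213, with a mean under threshold. Tgfb1i1, a focal adhesion adaptor induced by TGF-beta, gave 976, 1002.5 and 999, a log2 range of 0.08.

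The FGF homologous factors, which share the FGF fold but stay in the cell and bind voltage-gated sodium channels, passed for 2 of 4 genes. Fgf11 gave 1246, 990.1 and 1247 at its brighter probe set, and Fgf13 gave 217, 324 and 248.5. Fgf12 and Fgf14 were under threshold on every array. Fgfr1op2, which the rule takes in by its symbol and which is named for a fusion partner of Fgfr1 rather than being a receptor, gave 617, 378.5 and 532.

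Among the genes for secreted binding and matrix proteins, 4 of 9 had a probe set above threshold. Igfbp2, which binds IGF2 with high affinity and is made by choroid plexus, meninges and glia, gave 386, 1002 and 258, so that array 2 was the highest. Igfbp4 gave 520.0, 442 and 438 at its brightest probe set. Igfbp6, which prefers IGF2, gave 492, 602 and 288. Igfbp1, Igfbp3, Igfbp7 and Igfbpl1 were under threshold on every array. Bmp1, a metalloprotease that cleaves procollagen and the BMP inhibitor chordin and is not a BMP ligand, gave 355, 179 and 298 at its brighter probe set. Tgfbi, a matrix protein, was under threshold on every array.

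The spread between arrays was tested on the whole table with limma, which asked whether a probe set varied between the 3 arrays more than others of its level. Over all 6218 probe sets above threshold 1 passed after Benjamini-Hochberg adjustment, which is 0.0161%, and 0 of the 48 member probe sets did. Before adjustment 3 members were under 0.05, against 5.21% of all 6218. They were Igfbp2, the second probe set of Igfbp4 and Bmpr2, whose limma adjusted p was 0.667, 0.717 and 0.89. The median SD of log2 signal was 0.23 over the members and 0.25 over all probe sets above threshold.

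The highest array was more than 2-fold above the lowest for 6 of 48 member probe sets, which is 12.5%, against 12.1% of all 6218. The 6 were Bmpr2, Gdf9, Igfbp2, Igfbp6, the second probe set of Igfbp4 and the second of Fgf11. The last 2 passed the mean threshold only through array 2, on which they were highest. Gdf9 passed only through array 3 and Bmpr2 only through array 1, their highest arrays. The wide ranges of these probe sets are therefore no support for a wider spread. A single array stood more than 2-fold apart from both others, which differed by under 0.5 log2 units, for 3 members, against 4.58% of all probe sets. These were Gdf9 on array 1, the second probe set of Igfbp4 on array 2 and Bmpr2 on array 3. The smallest log2 ranges were those of Tgfb1i1, Igf1, Pdgfa, Fzd3 and Smad2, between 0.08 and 0.15. By family, 3 of 8 IGF probe sets, 2 of 19 TGF-beta probe sets, 1 of 8 FGF probe sets, 0 of 10 Wnt probe sets and 0 of 3 VEGF and PDGF probe sets spanned more than 2-fold.

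**Figure D2:**
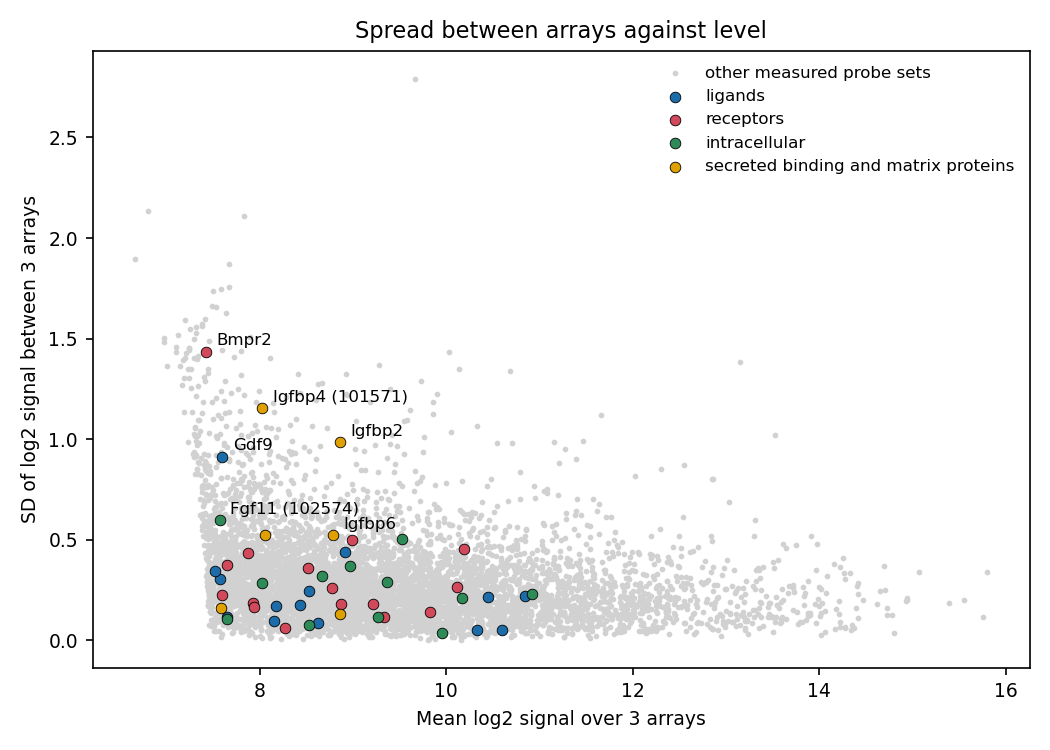
SD of log2 signal between the 3 arrays against mean log2 signal for all 6218 probe sets above threshold (grey) and the 48 member probe sets (coloured by role). The 6 named points are the members whose arrays span more than 2-fold, and the other 42 members span less than 2-fold.

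Among probe sets above threshold, the median deviations of IGF-binding proteins and of receptors had opposite signs on array 2. Of 4 IGF-binding protein probe sets above threshold, 3 were highest on array 2, with Igfbp2 at 386, 1002 and 258. Another of the 3, the second probe set of Igfbp4, passed the mean threshold only through array 2. Its place in this count and in the median below is therefore no support for an array 2 excess. Without array 2, 3 IGF-binding protein probe sets were above threshold. Of 16 receptor probe sets, 0 were highest and 11 lowest on array 2, against 33.2% and 42.3% of all probe sets. The count of 0 depended on the processing. After quantile normalization, cyclic loess or restriction to the brightest probe set 1 receptor was highest there. Over all probe sets the shares in these settings were 34.6%, 36.7% and 35%. With the threshold at the 75th percentile it was 1 of 5, against 36.2% of all probe sets. With the threshold at the 25th percentile it was 5 of 29, against 31.6%, and with no threshold 5 of 38, against 28.1%. Without array 1 it was 4 of 16, against 44.8%, and without array 3 it was 2 of 18, against 46.6%. The median log2 deviation of array 2 from the mean of the other arrays was -0.27 for receptors. For intracellular genes it was -0.24, for ligands 0.08 and over all 6218 probe sets -0.05. For secreted binding and matrix proteins it was 0.35 over 6 probe sets, of which 3 were highest and 2 lowest on array 2. The IGF-binding proteins among them, a group outside the planned roles and families, had a median of 1.145. Tgfb2, Wnt3 and the second probe set of Fgf11 also passed the mean threshold only through array 2. Their places in the ligand and intracellular medians are likewise no support for an array 2 excess. Array 1 was the highest for 10 of the 16 receptors, against 29.3% of all probe sets. Among the 10, Bmpr2 passed the mean threshold only through array 1, so its place there is no support. Over the 48 members, arrays 1, 2 and 3 were the lowest for 11, 22 and 15, against 29.3%, 42.3% and 28.4% of all probe sets, and the highest for 21, 11 and 16, against 29.3%, 33.2% and 37.5%. The receptor median on array 2 was -0.25 at the 25th percentile, -0.17 over 5 probe sets at the 75th and -0.04 with no threshold. For the IGF-binding proteins the deviation on array 2 was 0.68 over the brightest probe set of each gene, 0.39 over 10 probe sets at a threshold at the 25th percentile, and 0.09 over all 12 with no threshold. No test was made of these counts, and receptors measured in 1 RNA sample are not independent.

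Array 2 also differed in other measures. The ratio of 3' to 5' signal of Gapdh was 3.99, 1.21 and 3.94 on arrays 1, 2 and 3, while that of Actb was 2.57, 1.86 and 3.50, with array 1 nearer to array 2 than to array 3. In addition, the highest signal of 15 bacterial control probe sets was 54.1, 115 and 55.6. Choroid plexus and ependyma markers, 3 of 5 genes with a probe set above threshold, had summed signals of 1899, 5130 and 611, highest on array 2 as for Igfbp2, Igfbp6 and Igf2. On arrays 1 and 2 most of that sum was Ttr, the thyroid hormone carrier of choroid plexus, at 1333.5, 4257 and 94.2. Foxj1 gave 313, 508 and 166, whereas Kl gave 252, 366 and 351 and was not lowest on array 3. Some markers of other cells were high on array 2 too. CA3 and CA2 markers, 4 of 7 genes, summed to 6175, 11299 and 7464. In that list 2 genes were highest on array 2, Nnat at 1042, 4861.5 and 885 and Nptx1 at 341, 868 and 766.5. The other 2 were highest on array 3, Bok at 657, 812 and 895.5 and Rgs14 at 4134, 4758 and 4918. Of 9 oligodendrocyte probe sets 6 were highest and 2 lowest on array 2. Several of the 6 belong to Mobp, a myelin protein gene, of which 1 probe set gave 638, 1776 and 390.3. The brightest of Mobp gave 12546.5, 11531 and 12530, lowest on array 2. Summed over the brightest probe set of each gene, the signals were 23263, 24586 and 23408.5. Astrocyte markers summed to 38289, 43017 and 32467, and of their 10 probe sets 4 were highest and 3 lowest on array 2. Of 8 microglia probe sets 5 were highest and 2 lowest on array 2, with sums of 6192, 6319 and 6626.5. Meningeal and fibroblast markers, 6 of 8 genes, had summed signals of 12615, 7794 and 7769, highest on array 1. The part of these in the results was not tested, and in tissue RNA more cells of a type and more RNA per cell cannot be told apart. Of the listed markers of CA1 pyramidal cells 4 could be measured, and their brightest probe sets passed on every array, among them Wfs1 at 2532, 2452 and 2582.

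**Figure D3:**
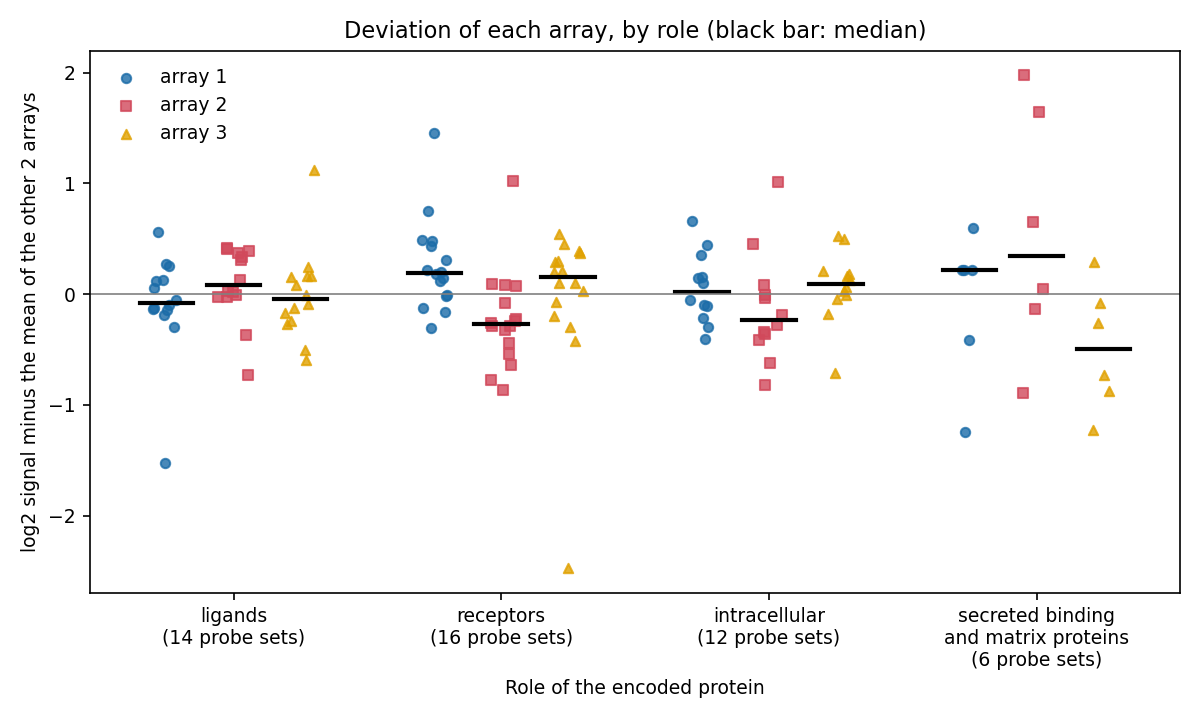
Deviation of each array's log2 signal from the mean of the other arrays for the 48 member probe sets, by role, with black bars at the medians. On array 2 the receptors centre below 0 at -0.27 and the ligands near 0 at 0.08, and the secreted binding and matrix proteins spread most widely.

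Several probe sets of 1 gene did not always give the same picture. Of the 24 genes with more than 1 probe set, 15 had at least 1 above threshold and 5 had 2. Both probe sets of Smad1 were highest on array 3 and both of Bmp1 on array 1, where the second of Bmp1 gave 214, 198.5 and 166. The 2 probe sets of Acvrl1, a type I receptor of endothelium, disagreed at 412, 495 and 506.5, and 283, 221 and 231. Another of Acvrl1, with a mean under threshold, gave 184, 182 and 125.

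For Igfbp4 the second probe set gave 148, 658 and 182.5, where array 2 was the highest, while the brightest gave 520.0, 442 and 438 with a log2 range of 0.24. The faintest gave 15.1, 24.3 and 9.0. The array 2 excess of Igfbp4 thus rests on 1 of 3 probe sets. The second probe set of Fgf11 gave 167, 307 and 134, highest on array 2, where the brighter one was lowest. Fgfr2 gave 38.3, 342 and 136, and 27.3, 82.1 and 122 at its other probe sets, both with means under threshold.

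The remaining extra probe sets were under threshold on average and gave little beside the first. Igf1 gave 130.2, 53.7 and 14.0 and Igf2 gave 41.9, 29.5 and 8.5 at theirs, in neither case following the bright probe set. Pdgfra gave 199.6, 54.8 and 132, and 68.0, 4.6 and 7.3, both highest on array 1 as for its bright probe set. Acvr2a gave 86.1, 142 and 105, Bmp4 gave 72.4, 99.6 and 57.8, and Tgfb3 gave 52.1, 26.3 and 17.6. Fzd3 gave 130.5, 63.4 and 69.3 and Dvl2 gave 58.0, 64.6 and 33.2. The 2 others of Fzd4 reached at most 26.3 on any array.

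**Figure D4:**
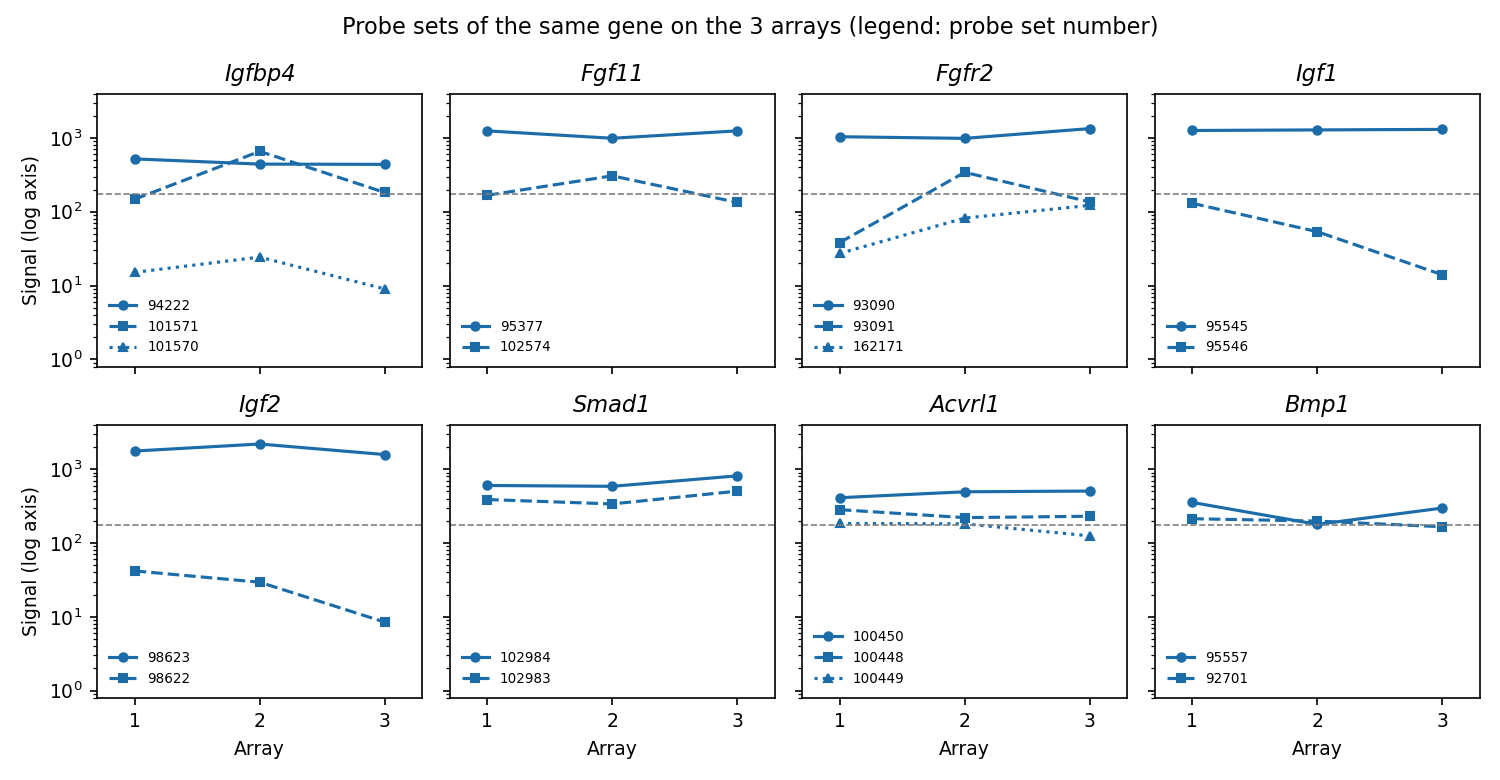
Deposited signal (log axis) on arrays 1, 2 and 3 for all probe sets of 8 genes, with 1 line per probe set and the threshold dashed. Lines join the values of 1 probe set and imply no order of arrays. The second probe set of Igfbp4 peaks on array 2 at 658 while the brightest lies between 438 and 520.0, and both probe sets of Smad1 are highest on array 3.

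Other genes of the pathways, outside the symbol rule, were taken from 3 lists. Of 24 Wnt pathway genes, 21 had a probe set and 13 passed the threshold. Ctnnb1, the beta-catenin gene, gave 5638, 4462 and 6233, Axin1, a scaffold of the destruction complex, gave 468, 419.9 and 494, and the feedback target Axin2 was under threshold at 86.1, 93.7 and 139. Of 16 probe sets of this list above threshold, 0 passed the limma variance test. An unadjusted p under 0.05 was found for 3, against 5.21% of all 6218. These were Dkk3, a Dickkopf-family protein, at 1559, 2929 and 1404, the transcription factor Tcf7l2 at 282, 664 and 518, and 1 probe set of the kinase Csnk1d at 125, 462 and 177. All 3 were highest on array 2, as were 9 of the 16, against 33.2% of all probe sets. This Csnk1d probe set and another of the 9 passed the mean threshold only through array 2. Their places in these counts are therefore no support for an array 2 excess. Another Csnk1d probe set gave 243, 155 and 211, lowest on array 2. Other wide ranges were those of a further Csnk1d probe set at 876, 1407 and 801 and of Csnk1e at 1474.5, 1203 and 824.

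Of 21 TGF-beta pathway genes, 10 were above threshold, each at 1 probe set. In the limma variance test 0 passed, and 0 had an unadjusted p under 0.05, against 5.21% of all 6218 probe sets. The activin inhibitor Fst and the BMP inhibitor Nog had means under threshold, and the follistatin-like gene Fstl1 gave 241, 224 and 176. Among the Id genes, direct targets of BMP signals, Id2 gave 4279, 2772.5 and 4740 and Id1 gave 274, 196 and 301. Both were lowest on array 2, as were 42.3% of all probe sets above threshold. Ltbp3, a binding protein of latent TGF-beta, gave 313, 181 and 301, Eng, a co-receptor of endothelium, gave 705, 875 and 1012, and Fkbp1a, which binds type I receptors, gave 18917, 14500.3 and 18798.

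Of 27 growth factor pathway genes, 15 were above threshold and 0 passed the limma variance test. The VEGF receptor Flt1, which binds VEGFB, gave 284, 298 and 266 at its brighter probe set, while Kdr, the main VEGFA receptor, and Flt4 were under threshold on every array. Akt1, a kinase downstream of IGF receptors, gave 737, 1450.2 and 683. It was the 1 of 16 probe sets above threshold with an unadjusted p under 0.05, against 5.21% of all 6218. The exchange factor gene Sos1 gave 106, 114 and 342, Pik3r1, a subunit of PI3 kinase, gave 251, 285 and 98.9, the adaptor Grb2 gave 1464, 903 and 1402, and the placental growth factor gene Pgf gave 258, 284.5 and 165.5.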

How the data were processed

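RNA of 1 group was measured on 3 oligonucleotide arrays, whose probe-set names follow the Affymetrix style. The deposited values are signal intensity on a linear scale, 1 per probe set, scaled before deposit to a common trimmed mean of 500.3 on each array. The program behind them is not given in the sources used here. Gene symbols come from the platform annotation, updated through Entrez identifiers with the GRCm38.p6 table. For the spread, arrays were scaled to a common median over the 6218 probe sets above threshold (factors 0.991, 0.987 and 1.02), floored at 47.5, the 25th percentile of all values, and log2-transformed. The variance of each probe set was tested against a robust intensity-dependent prior with limma 3.58.1 in R 4.3.3 (Benjamini-Hochberg threshold 0.05). On simulated data of 6218 probe sets, the test called 2% of shifts of 2 log2 units on 1 array, 49% of 3 and 93% of 4. Depth has no meaning for arrays, and their number limits the precision.

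The members, lists, tests and rule for named genes were chosen with earlier results of these data known. Every member may be named, and values by array are given for the 20 widest and 5 narrowest log2 ranges, the 3 highest means of each family and role, and genes with several probe sets. The pathway genes named were the first 3 of each list and the 5 widest. Values of Smad7, Tgfbr3 and the members under threshold with 1 probe set (Vegfa, Pdgfrb, Gdf10, Acvr1b, Dvl3, Smad6) lie outside this rule and were added after values were seen, as were the choice of promoters and the move of Bmp1 and Fgfr1op2 out of the ligands and receptors.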

Additional observations from a re-analysis of the deposited data

How the results depend on the processing

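The direction and the calls of the variance test were compared over other scalings, floors, thresholds, probe set choices, priors and arrays left out. Under no scaling, quantile normalization, cyclic loess, both other floors, the plain suffix and the brightest probe set, the member counts stayed within 1.5 times the reported ones. Probe sets above threshold numbered 97 at the 25th percentile, 15 at the 75th and 141 with no threshold, and those over 2-fold apart numbered 31, 0 and 30, beside 2429 of 9627, 205 of 3109 and 2450 of 12422 over all probe sets. The median SD of members, 0.2287 beside 0.2534 over all probe sets, turned to the higher of the pair at the 25th percentile (0.3841 beside 0.3219), with no threshold (0.2878 beside 0.264) and without array 1 (0.2581 beside 0.2413). Leaving out 1 array gave 45 to 49 above threshold, 2 to 5 over 2-fold apart, median SDs of 0.1462 to 0.2581 and 0 to 1 past the variance test. The 1 call, without array 3, was the second probe set of Igfbp4 (limma adjusted p = 0.0195, in a range of 0.0195 to 0.888 over 10 alternatives), where 44 of all probe sets passed. The limma adjusted p of Igfbp2 ranged from 0.194 to 0.985 and that of Bmpr2 from 0.335 to 0.995. Over 46 probe sets given by array, 63 of 547 recomputed log2 ranges moved by over 1.5 times, 56 of them on leaving out an array. That of Igfbp2 was 0.54 without array 2, that of Gdf9 0.48 without array 1, that of Smad4 0.66 without array 1 and 0.33 without array 2, and that of Bmpr2 0.29 without array 3 and 1.61 with the floor at the 40th percentile. The count over 2-fold apart was 2 without array 2 and 3 without array 3. The median deviation of all members on array 2 was -0.03, and it lay between -0.17 and 0 over the alternatives. An added alternative, chosen after seeing the data, left out probe sets with an array under the floor. It left out 0 members, so its count of 6 over 2-fold apart was fixed in advance. No paired analysis was possible because the labels give 1 group.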

Other observations

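Some members known from tissues other than adult brain gave signals above threshold on every array. Fgf4, known from the early embryo, gave 632, 349.9 and 510.2, Inhbc, known from liver, gave 331, 289.7 and 253, and Wnt1 gave 268, 285.5 and 298. The 3 were picked as lying above the threshold of 175. That they also lay above 115, the highest bacterial control signal on any array, was thus fixed in advance. Whether the signals come from these genes was not tested.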
